A study of Mus musculus with 6 samples.

Results

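Pseudogenes were the genes that the authors' table of the comparison lists under a biotype containing the word pseudogene. There were 1344 of them among the 11422 genes of that table, and 57010 genes stood in the count table, of which 16909 had a count. They held 10.9% of all counts, nearly all of it on gene copies that match a protein-coding gene closely. None of the pseudogenes tested passed the edgeR test between the groups over all 6 libraries, beside 0.0675% of all 7412 tested genes. The cells were MLE-12, an immortalised mouse lung epithelial line labelled wild type. I/R + Dex cells were given 10 µM dexmedetomidine, a sedative that activates alpha-2 adrenergic receptors, for 12 h before 12 h in 1% oxygen and 4 h of reoxygenation. I/R cells had the same hypoxia and reoxygenation without the drug. Each group had 3 libraries of poly(A)-selected RNA, called independent biological replicates of 1 line and placed in 1 batch by the labels. Per the title of the series, the comparison concerns ferroptosis, an iron-dependent cell death that the enzyme Gpx4 counteracts.

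A pseudogene is a gene copy that is held to have lost the ability to make the protein of its parent. A processed pseudogene arose when a spliced messenger RNA was copied back into DNA and inserted elsewhere, so it usually has no introns and no promoter of its own. An unprocessed pseudogene arose from duplication of genomic DNA, and a unitary one is a gene that lost its function without a functional copy left behind. Genes with abundant messenger RNA in the germ line, such as those of ribosomal proteins, glycolysis and the cytoskeleton, are known for many processed copies. A short read can match a young copy and its parent equally well. The labels, headers and processing notes do not say how reads with several matches were counted, so how much of a copy's count came from RNA of its parent was not tested.

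Sequences of 5 parents with the copies on which the results turn show how alike they are. Each line gives 150 bases, the length of 1 sequenced read, from the parent's coding sequence and the matching bases of the copy, written 5′ to 3′ in the direction of the parent's messenger RNA. Capitals mark positions at which a copy differs from its parent, or, in the parent, positions at which any copy shown differs. All came from GENCODE vM21 transcripts on GRCm38. The first set holds Ppia, which encodes the proline isomerase cyclophilin A, with its 3 most counted copies, which together carried far more counts than the gene.
Ppia: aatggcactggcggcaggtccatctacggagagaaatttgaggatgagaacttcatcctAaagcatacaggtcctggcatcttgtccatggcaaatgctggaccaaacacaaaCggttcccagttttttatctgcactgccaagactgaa
Gm6061: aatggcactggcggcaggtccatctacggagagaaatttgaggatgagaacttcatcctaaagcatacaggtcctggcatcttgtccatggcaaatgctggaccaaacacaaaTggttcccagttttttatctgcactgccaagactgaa
Gm10123: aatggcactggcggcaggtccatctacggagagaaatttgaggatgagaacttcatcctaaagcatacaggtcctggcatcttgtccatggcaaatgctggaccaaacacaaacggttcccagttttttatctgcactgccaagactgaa
Gm13493: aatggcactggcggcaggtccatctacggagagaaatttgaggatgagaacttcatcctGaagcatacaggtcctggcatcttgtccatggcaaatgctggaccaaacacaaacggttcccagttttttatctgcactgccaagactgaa
Rplp0 encodes a protein of the ribosomal stalk, and Gm9625 is its most counted copy.
Rplp0: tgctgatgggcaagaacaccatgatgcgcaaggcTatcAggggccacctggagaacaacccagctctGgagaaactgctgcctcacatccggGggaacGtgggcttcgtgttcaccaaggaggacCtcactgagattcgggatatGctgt
Gm9625: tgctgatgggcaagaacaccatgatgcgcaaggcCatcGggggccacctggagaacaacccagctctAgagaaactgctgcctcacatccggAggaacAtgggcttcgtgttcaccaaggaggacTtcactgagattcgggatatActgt
Gpx4 encodes the glutathione peroxidase that reduces lipid hydroperoxides, and Gpx4-ps2 is the copy that was close to 0 in 1 library.
Gpx4: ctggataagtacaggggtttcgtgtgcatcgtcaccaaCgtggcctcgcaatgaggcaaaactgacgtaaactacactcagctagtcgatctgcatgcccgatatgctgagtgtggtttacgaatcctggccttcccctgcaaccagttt
Gpx4-ps2: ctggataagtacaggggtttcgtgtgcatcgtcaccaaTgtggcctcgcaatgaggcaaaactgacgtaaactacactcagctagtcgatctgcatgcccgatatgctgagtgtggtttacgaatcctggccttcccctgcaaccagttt
Stmn1 encodes stathmin, which binds tubulin, and Gm11223 had the lowest p of any pseudogene in the edgeR gene test over all 6 libraries.
Stmn1: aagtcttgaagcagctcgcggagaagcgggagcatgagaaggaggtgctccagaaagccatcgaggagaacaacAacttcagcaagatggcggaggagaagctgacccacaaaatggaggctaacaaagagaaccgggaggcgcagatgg
Gm11223: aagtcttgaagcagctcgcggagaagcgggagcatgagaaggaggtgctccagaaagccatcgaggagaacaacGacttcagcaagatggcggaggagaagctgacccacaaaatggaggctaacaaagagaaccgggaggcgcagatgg
Ubald2 was among the genes called between the groups, and Gm7367 is its copy.
Ubald2: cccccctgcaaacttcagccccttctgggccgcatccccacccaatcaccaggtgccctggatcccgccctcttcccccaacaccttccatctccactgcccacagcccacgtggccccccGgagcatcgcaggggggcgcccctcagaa
Gm7367: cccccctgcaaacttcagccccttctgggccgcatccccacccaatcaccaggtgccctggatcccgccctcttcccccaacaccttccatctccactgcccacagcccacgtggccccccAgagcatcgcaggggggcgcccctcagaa
Over the whole aligned coding sequence, Gm6061 differed from Ppia at 1 of 492 bases, Gm10123 at 0 of 490 and Gm13493 at 4 of 492. Gm9625 differed from Rplp0 at 24 of 951 bases, Gpx4-ps2 from Gpx4 at 2 of 538, Gm11223 from Stmn1 at 1 of 447 and Gm7367 from Ubald2 at 1 of 492. Of all windows of read length in Gm10123, 100% were found unchanged in a transcript of the parent, and 56.3% were in Gm6061, 50.2% in Gm11223, 49.4% in Gpx4-ps2 and 83.4% in Gm7367, but 5.46% in Gm9625.

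Facts of the whole series bear on these values. Total counts ran from 2333546 to 2586743 in I/R + Dex and from 2607952 to 2941989 in I/R libraries, so a count of 0 allows up to 1.02 to 1.29 CPM (counts scaled to one library total), taking 3 counts as the limit. Of 10 epithelial markers, 6 were at 0 in all 6 libraries, Krt8 and Krt18 among them, and so were 6 of 10 alveolar type II markers, Sftpc among them. All 10 fibroblast markers had counts, with a summed level of 499 to 657 CPM in I/R + Dex and 518 to 601 CPM in I/R libraries. Markers of 2 other cell types did not overlap between the groups, in both cases narrowly. The 6 endothelial ones summed to 6.61 to 12.0 CPM in I/R + Dex and 2.30 to 6.14 CPM in I/R, with Tek at 0. The 8 leukocyte ones summed to 29.997 to 34.4 CPM in I/R + Dex and 21.5 to 29.909 CPM in I/R, with Cd3e and Cd79a at 0. The epithelial and fibroblast levels go against the label of an epithelial line, and the part of all these markers in the results below was not tested.

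Over all 6 libraries, the share of counts on pseudogenes differed between the groups by less than the spread between libraries. It was 10.8%, 11.2% and 10.8% in the I/R + Dex libraries, and 10.9% in each I/R library. The highest and the lowest library were both from I/R + Dex, and the groups overlapped. The means were 10.9% ± 0.227 in I/R + Dex and 10.9% ± 0.0215 in I/R (SD, n = 3 each), a difference of 0.0203 percentage points (exact two-sided permutation test, p = 1, where 3 against 3 libraries cannot go below 0.1). This difference rested on I/R + Dex replicate 2, the library with 11.2%: without it the difference was -0.111 percentage points and the groups did not overlap (exact permutation p = 0.1, the smallest that 2 against 3 libraries can give). Per length of transcript the share was larger: pseudogenes held 39.8% ± 0.488 of the summed FPKM (fragments scaled by transcript length and library depth) in I/R + Dex and 39.6% ± 0.238 in I/R (SD, n = 3 each, exact permutation p = 0.8). The median member transcript was 718 bases long.

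**Figure D1:**
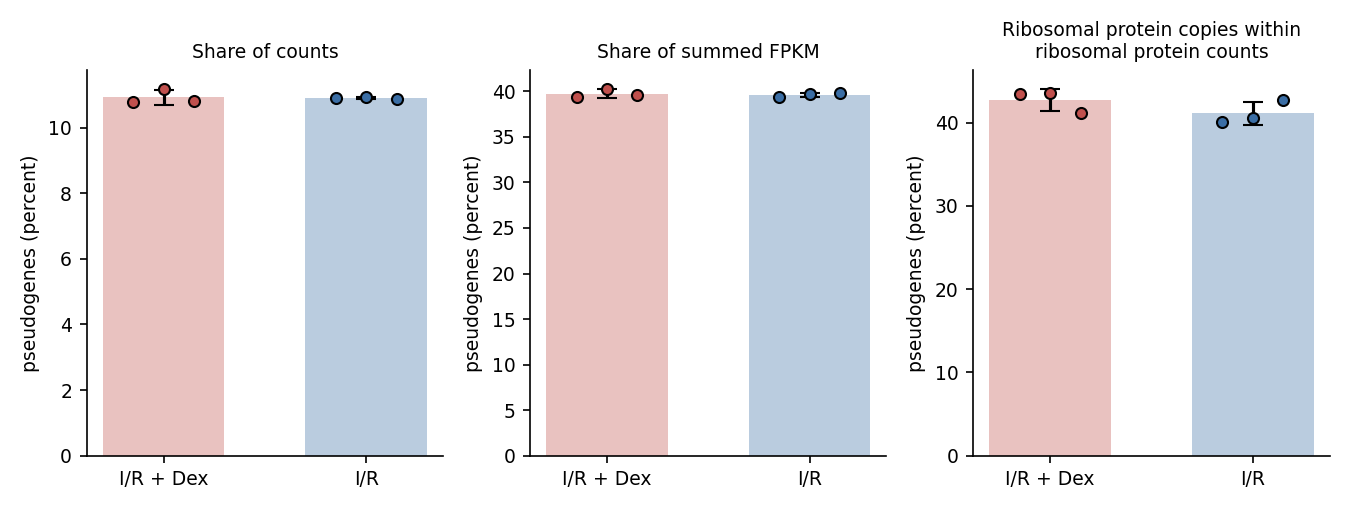
Percent of counts on pseudogenes, percent of summed FPKM on pseudogenes, and percent of ribosomal protein counts on ribosomal protein pseudogenes named after their parent. Bars are means, error bars SD and points single libraries (3 in I/R + Dex on the left, 3 in I/R on the right); bars start at 0 and the points of the groups overlap in all 3 panels.

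By class, processed pseudogenes dominated. The 1249 processed members held 92.1% of the pseudogene counts, and the 58 transcribed processed ones, for which the annotation records transcription, held 6.64%. The 27 unprocessed members held 0.948%. The remaining classes were small, with 2 members called pseudogene without further class, 5 transcribed unprocessed, 2 immunoglobulin V segment pseudogenes and 1 transcribed unitary pseudogene. Processed members made up 10.1% ± 0.228 of all counts in I/R + Dex and 10.0% ± 0.0326 in I/R (SD, n = 3 each), and the transcribed processed ones 0.715% ± 0.0456 in I/R + Dex and 0.733% ± 0.0149 in I/R. Over the 7 classes the lowest exact permutation p was 0.5 and adjusted values ran from 0.98 to 1. The reference held 1247 of the processed transcripts, and 1216 of these had a single exon. Of the members with a place in the reference, 864 lay between genes and held 63.3% of the pseudogene counts, while 170 lay in an intron on the strand of the host gene and 205 on the other strand, and 48 and 55 overlapped an exon on the same and on the opposite strand. The labels do not say whether strand was kept. If it was not, reads of members and of genes on the opposite strand at the same bases cannot be told apart.

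A few members carried most of the counts. The 10 most counted held 24.9% and the 100 most counted 65.7% of the pseudogene counts, and 48 members made up 50%. At the other end, 576 members with under 100 counts over the 6 libraries held 1.20%. The median member had 159.5 counts in all, and 1151 members had a count in every library. When all libraries were thinned to 2333546 counts, between 1274 and 1283 members had a count in an I/R + Dex library and between 1280 and 1289 in an I/R library, a difference of -6.00 (exact permutation p = 0.2). Most members carry only a number as name: 1041 were named Gm followed by digits, and 273 had a name that ends in ps, with or without a number.

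The most counted member was Gm13456 on chromosome 2 (40445764 to 40447128, plus strand, GRCm39), a copy of Eef1a1, the elongation factor that brings aminoacyl-tRNA to the ribosome. It had 18371, 19611 and 17334 counts in I/R + Dex, against 18355, 20952 and 19011 in I/R libraries, 6.72% of all pseudogene counts. The groups overlapped, and the log2 ratio, here always I/R + Dex divided by I/R, was 0.087 ± 0.075 (SE, adjusted p = 1.00 in edgeR). Its total of 113634 counts exceeded the 97995 counts of Eef1a1 itself. Next came Gm6682, a copy of the alpha-tubulin gene Tuba1c, with 62240 counts beside 57773 on its parent, and a log2 ratio of -0.0018. The third was Gm6061 on chromosome 3 (122050377 to 122050868, plus strand), which lies on an exon of Gclm, a subunit gene of the enzyme that starts glutathione synthesis. Gm6061 had 8962, 7914 and 8052 counts in I/R + Dex, against 8962, 10050 and 9203 in I/R libraries. Its parent Ppia had 638, 597 and 670 counts in I/R + Dex and 656, 1049 and 189 in I/R libraries. The copy thus held a steady level, with a log2 ratio of -0.022 ± 0.038 (SE), while its parent was the more variable and had both its lowest and its highest count within I/R. Gclm itself had 92, 42 and 46 counts in I/R + Dex and 57, 52 and 110 in I/R libraries, far below the copy that lies on its exon.

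Members were matched to parents by sequence, with at least 90% identity over 200 bases and 50% of the copy. A parent was found for 1293 of the 1344, and these held 99.4% of the pseudogene counts and fell on 667 parents, with a median identity of 98.2%. Over all 667 families, 36.5% of the counts lay on the copies. Among 447 families with at least 600 counts in all, 134 had more counts on copies than on the parent and 45 had over 90% on copies. Identity went with level: the median copy had 4.51 FPKM at 90 to 95% identity, 9.58 at 95 to 98%, 18.9 at 98 to 99%, 30.9 in the next range and 57.5 FPKM in the range of the most alike copies. The share of copies with a higher FPKM than their parent was 23.4% of 192 copies in the least alike range and 76.3% of 114 copies in the most alike range. These are values across copies, which share libraries and often a parent, and no test was made. Of the windows of 150 bases in a copy, none was found in the parent for 488 members, which held 15.9% of the pseudogene counts. All windows were found in the parent for 91 members, which held 9.67%.

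**Figure D2:**
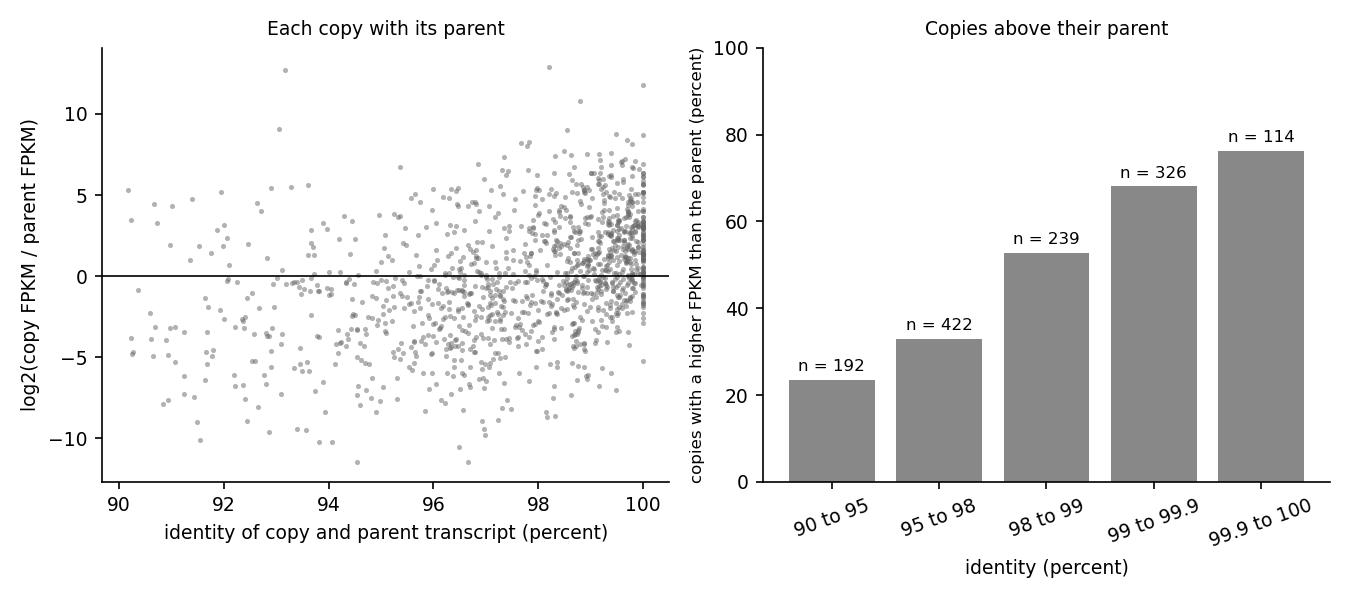
Left, log2 ratio of the FPKM of a copy to that of its parent (means over 6 libraries) against the identity of their transcripts in percent, 1 point per copy with a parent above 0. Right, percent of copies with a higher FPKM than their parent by range of identity, with 23.4% in the lowest and 76.3% in the highest range.

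Ribosomal protein copies were the largest group by role of the parent. The 279 copies of 70 ribosomal protein genes held 19.3% of the pseudogene counts, and 64.9% ± 0.871 of the counts of parents plus copies in I/R + Dex and 63.9% ± 1.10 in I/R (SD, n = 3 each). Of 156 tested, 0 passed the edgeR test at an adjusted p of 0.05, beside 0.0675% of all 7412 tested genes. The unadjusted p was under 0.05 for 4 of them, or 2.56%, beside 3.39% of all tested genes, and their median log2 ratio was 0.012, beside -0.0052 over all tested genes. Counting only copies named after a ribosomal protein, their share of ribosomal protein counts was 43.5%, 43.6% and 41.2% in I/R + Dex and 40.1%, 40.6% and 42.7% in I/R libraries. The lowest I/R + Dex library lay below the highest I/R library (exact permutation p = 0.2). Gm9625, the copy of Rplp0 on chromosome 13 (67958365 to 67959319, plus strand), had 5162, 5088 and 5018 counts in I/R + Dex and 5505, 6251 and 5003 in I/R libraries. Rplp0 itself had 732 counts over all 6 libraries, so its 5 copies held 98.5% of the family. Rps27a-ps2, a copy of the gene for a ribosomal protein fused to ubiquitin, had 15565 counts, while its parent Rps27a had 233. Rps19-ps6, inside an intron of Tecpr2, had 4656, 4522 and 4459 counts in I/R + Dex and 5053, 5598 and 4981 in I/R libraries. Its parent Rps19 had 1262, 1120 and 986 counts in I/R + Dex and 1073, 1258 and 1190 in I/R libraries, and both held a steady level. Gm10335 on chromosome 10 and Gm10132 on chromosome 14, copies of Rpl23a, have 468 bases each and differ at 2 positions. Their counts differed by under 1% in every library, with 22589 in all on Gm10335 and 22562 on Gm10132.

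Copies of genes for chaperones and protein turnover came next, with 74 copies of 31 parents and 10.8% of the pseudogene counts. Ppia alone had 15 copies with 120882 counts in all, beside 3799 on the gene. Its 3 leading copies were Gm6061, Gm10123 and Gm13493, which held 83.9% of the family's copy counts and lie on chromosomes 3, 9 and 2. Gm10123, identical to Ppia over its length, had 26168 counts, fewer than the 53143 of Gm6061, which differs at 1 base. The copies' share in this role was 52.1% ± 0.278 in I/R + Dex and 52.8% ± 1.09 in I/R (SD, n = 3 each). Of 58 tested copies, 0 passed the edgeR test, beside 0.0675% of all 7412 tested genes. The unadjusted p was under 0.05 for 0 of the 58, beside 3.39% of all tested genes, and their median log2 ratio was -0.017.

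Cytoskeleton copies held 10.5% of the pseudogene counts with 18 members, led by Gm6682 and by Gm14150, a copy of Tuba1b with 36911 counts beside 71907 on its parent. Translation factor copies held 10.4% with 41 members, led by Gm13456 and by Eef1a1-ps1, which had 14743 counts. RNA-binding protein copies held 8.07% with 54 members. In that role 20 copies of Hnrnpa3 had 81645 counts together beside 465 on the gene. The leading one, Gm12960, had 2825, 2610 and 2599 counts in I/R + Dex and 2998, 3446 and 3141 in I/R libraries, which did not overlap, and a log2 ratio of -0.096 ± 0.051 (SE, adjusted p = 1.00 in edgeR). The median log2 ratio was -0.022 for cytoskeleton, 0.070 for translation factor and -0.029 for RNA-binding protein copies. In the edgeR test 0 of 16, 0 of 28 and 0 of 44 tested copies passed, beside 0.0675% of all 7412 tested genes. An unadjusted p under 0.05 was found for 0%, 0% and 2.27% of them, beside 3.39% of all tested genes.

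Copies of metabolic and redox genes held 7.01% with 79 members. Gapdh, the glycolytic dehydrogenase often used as a control gene, had the most copies of any parent, 46 on 18 chromosomes. They had 82300 counts in all, beside 922 on Gapdh. The gene itself had 8, 282 and 296 counts in I/R + Dex and 7, 7 and 322 in I/R libraries, so 3 libraries of both groups were below 10 counts. Gm4795 had 1726, 1756 and 1661 counts in I/R + Dex and 1892, 2003 and 1760 in I/R libraries, with no such split. No single copy dominated, since Gm4795 as the leading one had 10798 counts and the 3 leading ones held 31.7% of the copy counts. Pgk1, which encodes another glycolytic enzyme, kept most of its counts on the gene, with 62669. Its identical copy Pgk1-rs7 had 1526, 1763 and 2313 counts in I/R + Dex and 1937, 1662 and 1693 in I/R libraries, with overlap. Copies of chromatin and high mobility group genes held 3.80% with 65 members. Their share of the counts with parents was 37.8% ± 0.658 in I/R + Dex and 34.9% ± 0.736 in I/R (SD, n = 3 each), and this share was not tested. Of 48 tested copies, 0 passed the edgeR test, beside 0.0675% of all 7412 tested genes. The unadjusted p was under 0.05 for 1 of the 48, or 2.08%, beside 3.39% of all tested genes. H3f3c, a copy of the histone H3.3 gene H3f3a, had 867, 878 and 865 counts in I/R + Dex and 364, 982 and 985 in I/R libraries, with 1 I/R library low. Hmgb1, which encodes a DNA-bending protein, had 26 copies with 17756 counts beside 295 on the gene. The copies of all other parents, 683 in number, held 29.5%, and 26.3% ± 0.310 of the counts of their families in I/R + Dex and 26.2% ± 0.188 in I/R.

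Copies of mitochondrial genes formed a small group of 8, chosen for description after its values were seen. Of these, 7 lie side by side on chromosome 1 within 4663 bases (24650616 to 24655278), an insertion of mitochondrial DNA into the nuclear genome, and they belong to the unprocessed class. Gm28661 had 365, 264 and 286 counts in I/R + Dex and 476, 331 and 323 in I/R libraries. Its identical parent mt-Co2, a subunit gene of cytochrome oxidase, had 369, 277 and 287 counts in I/R + Dex and 483, 338 and 323 in I/R libraries. Copy and mitochondrial gene were thus close to equal in every library. Gm10925 behaved likewise beside mt-Atp6 in 4 libraries: it had 450, 266 and 359 counts in I/R + Dex and 481, 336 and 424 in I/R libraries. Its parent mt-Atp6, an ATP synthase subunit gene, had 423, 1 and 335 counts in I/R + Dex and 462, 64 and 397 in I/R libraries. Gm28439, identical to the mt-Nd4 stretch it matches, had 182, 0 and 142 counts in I/R + Dex and 180, 0 and 139 in I/R libraries. Both libraries numbered 2 were therefore at 0 for this copy, and both were the lowest of their group in mt-Atp6.

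In the gene test, 879 of the 1344 members had enough counts, and these held 99.3% of the pseudogene counts. With edgeR's quasi-likelihood test, 0 of the 879 passed an adjusted p of 0.05, beside 0.0675% of all 7412 tested genes, and 19 had an unadjusted p under 0.05, which is 2.16% beside 3.39% of all tested genes. Of these 19, 13 were higher in I/R + Dex and 6 were lower. On FPKM the order of these shares turned: limma trend on log2(FPKM + 1) gave an unadjusted p under 0.05 to 72 of 1250 members, or 5.76%, beside 3.88% of 8035 genes. With log2(FPKM + 0.1) it was 70 of 1250 members, or 5.6%, beside 3.72% of genes. Without a filter it was 6.47% of members, beside 3.01% of genes. DESeq2 called 0 members and 0.114% of all genes, and limma voom called 0 members and 1 of all 7412 genes. Limma trend called 1 member, Gm15378, beside 0.0996% of all genes on log2(FPKM + 1), 0.0373% on log2(FPKM + 0.1) and 0.0355% without a filter. Without I/R + Dex replicate 3, edgeR called 1 member, Gm8960, beside 0.0383% of all genes. The central 90% of members had log2 ratios from -0.47 to 0.52, against -0.68 to 0.61 over all tested genes, and 867 of the 879 lay within 1 of 0. The median 95% half-width of a log2 ratio was 0.23 for the 229 members above 100 CPM and 1.15 for those under 10 CPM. Smaller differences than these were mostly not detectable with these libraries. Larger ones could also miss the threshold, since the intervals are per gene and not adjusted for the number of genes tested. CPM did not overlap between the groups for 77 members, or 8.76%, beside 9.32% of all tested genes. They were 42 with higher values in I/R + Dex, beside 4.38% of all tested genes, and 35 with lower values, beside 4.94%. On transcripts, 0 of 887 pseudogene transcripts passed, beside 0% of all 9882. The unadjusted p was under 0.05 for 11 of the 887, a smaller share than the 2.92% of all 9882. DESeq2 called 0 pseudogene transcripts, beside 0.572% of all it tested. In the authors' deposited table, 0 of 1357 pseudogene transcripts are listed as significant, beside 0.577% of all 18021.

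**Figure D3:**
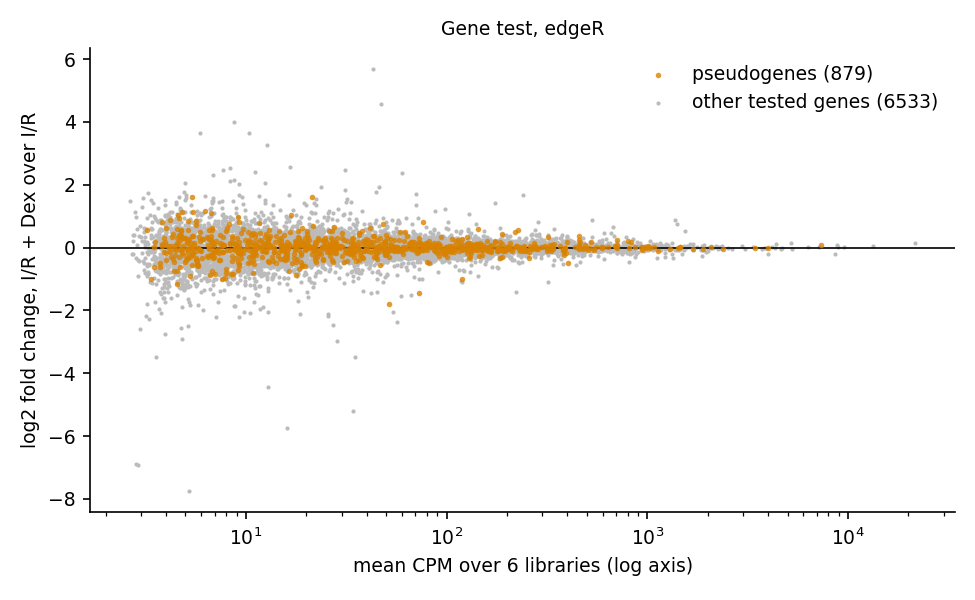
Log2 ratio of I/R + Dex to I/R against the mean CPM over 6 libraries (log axis) for the 879 tested pseudogenes and all other tested genes. The pseudogenes lie around 0 within the cloud of the other genes, and 867 of them within 1 of 0.

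The member with the lowest p in the edgeR gene test was Gm11223, the copy of Stmn1 on chromosome 4 (69843867 to 69844316, minus strand). It had 168, 158 and 164 counts in I/R + Dex, against 244, 268 and 246 in I/R libraries. All I/R + Dex libraries were below all I/R libraries, with 66.8 ± 1.61 CPM in I/R + Dex and 93.0 ± 1.67 CPM in I/R (SD, n = 3 each). The log2 ratio was -0.47 ± 0.11 (SE, unadjusted p = 0.0033, adjusted p = 0.941 in edgeR), and in the authors' deposited table its transcript has an adjusted p of 0.0828. Stmn1 itself had 200, 139 and 175 counts in I/R + Dex and 150, 211 and 172 in I/R libraries. The parent overlapped between the groups and had a log2 ratio of 0.10 ± 0.16 (SE, adjusted p = 1.00 in edgeR). Other members low in I/R + Dex at unadjusted p values near or under 0.05 were Gm50204, Gm48583, Gm13651, Gm14026, Gm4130, Gm5221 and Mrip-ps, with log2 ratios from -0.99 to -0.27. Of these, Mrip-ps, an unprocessed copy of Mprip, which encodes a protein that binds myosin phosphatase and RhoA, was the most counted. It had 234, 197 and 182 counts in I/R + Dex and 253, 296 and 273 in I/R libraries, and its groups did not overlap.

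On the higher side, Rps25-ps1 on chromosome 6 (145212126 to 145212503, plus strand) had 108, 44 and 87 counts in I/R + Dex and 39, 37 and 10 in I/R libraries. Every I/R + Dex library was higher, and the log2 ratio was 1.62 ± 0.52 (SE, adjusted p = 1.00 in edgeR). Its parent Rps25, a small-subunit ribosomal protein gene, had 196, 217 and 168 counts in I/R + Dex and 284, 316 and 295 in I/R libraries, a log2 ratio of -0.46 ± 0.14 (SE, adjusted p = 1.00 in edgeR). Copy and parent differed in opposite directions, and their sum had a log2 ratio of -0.10 ± 0.10 (SE, adjusted p = 1.00 in edgeR). Gm11204, Rpl7-ps8, Gm7331, Gm37201, Gm6382 and Rpl18-ps2 were also among the 8 lowest p values in this direction, with log2 ratios from 0.17 to 1.12. Gm6382, a copy of the histone-binding protein gene Rbbp7, was the most counted of them, with 1301, 1153 and 1140 counts in I/R + Dex and 1118, 1307 and 1151 in I/R libraries. Its libraries separated only after scaling, with 489 ± 16.5 CPM in I/R + Dex and 438 ± 8.24 CPM in I/R (SD, n = 3 each).

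Where the symbol names the parent, copy and parent can be set side by side without a sequence match. There were 249 such copies of 164 parents, and 100 families had at least 100 counts in every library. The copies held a median of 35.3% of these families, with a range from 0.126% to 98.6%, and more counts than the parent in 40 of them. The copies' share did not overlap between the groups in 9 families, 6 with a higher and 3 with a lower share in I/R + Dex. That is 9% of families, and each reached the lowest possible exact permutation p of 0.1 (adjusted p = 0.714). With parent and copies summed to 1 value, 0 of 158 families passed the edgeR test, beside 0.0689% of all genes tested in that fit. The unadjusted p was under 0.05 for 10 of the 158, a larger share than the 3.28% of all 7253 tested in that fit. The difference between these shares was not tested.

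**Figure D4:**
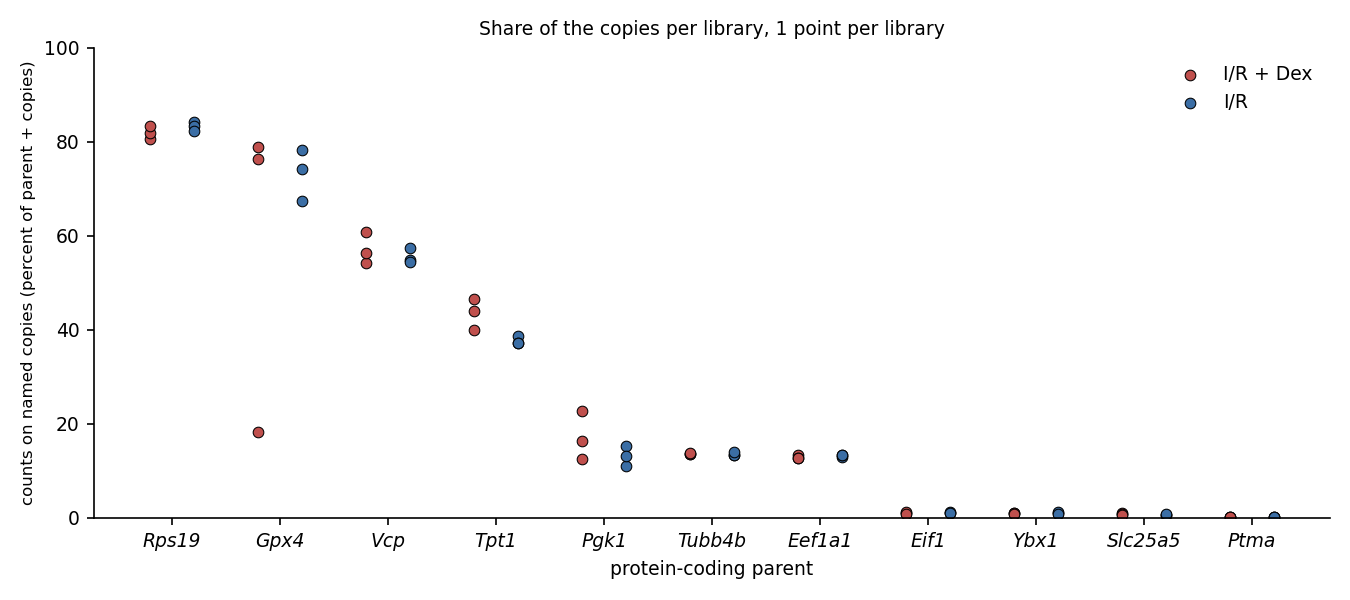
Percent of the counts of a parent plus its named copies that lay on the copies, 1 point per library, for the 10 most counted families and Gpx4 (I/R + Dex left, I/R right of each tick). In Gpx4, 1 I/R + Dex library stands at 18.2% and the other 5 libraries between 67.4% and 78.8%.

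Among the most counted families the copies' share differed widely between families, and within a family it was steady in some and not in others. Copies held 80.6% to 83.5% of the Rps19 family in I/R + Dex and 82.4% to 84.2% in I/R, and Eef1a1-ps1, the copy that carries the name, held 12.7% to 13.3% of itself plus Eef1a1 in I/R + Dex and at most 13.4% in I/R. They held 54.3% to 60.8% of Vcp, an ATPase that extracts proteins from complexes, in I/R + Dex and 54.4% to 57.5% in I/R. Pgk1-rs7 held a more variable share of itself plus Pgk1, 12.5%, 16.4% and 22.8% in I/R + Dex and 15.2%, 11.1% and 13.2% in I/R libraries. In the family of Ybx1, an RNA-binding protein gene with 138205 counts, the copy held under 2% of the counts in all libraries. Tpt1, a gene for a translationally controlled tumour protein, was the most counted family without overlap. Its copies held 39.9%, 46.6% and 43.9% in I/R + Dex, against 38.7%, 37.3% and 37.2% in I/R libraries. The copy Tpt1-ps3 is identical to Tpt1 over its length, and the family's sum had a log2 ratio of -0.016 ± 0.066 (SE, adjusted p = 1.00 in edgeR). Rpl3 had 72, 45 and 47 counts in I/R + Dex and 209, 131 and 156 in I/R libraries, while its copies had 219, 183 and 180 in I/R + Dex and 146, 205 and 197 in I/R libraries. The parent's groups did not overlap and the copies' counts did, so the share was 78.3% ± 2.65 in I/R + Dex and 52.6% ± 10.3 in I/R (SD, n = 3 each). Rpl3 and its sum had log2 ratios of -1.46 ± 0.27 and -0.34 ± 0.12 (SE), with adjusted p = 0.539 and 1.00 in edgeR.

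Gpx4, whose enzyme acts against ferroptosis, has copies Gpx4-ps1 and Gpx4-ps2. Gpx4-ps2 on chromosome 10 (45751384 to 45752191, plus strand), a transcribed processed pseudogene, had 1273, 1182 and 15 counts in I/R + Dex, against 1342, 1225 and 1276 in I/R libraries. A single library, I/R + Dex replicate 3, was low, and the other 5 lay close together. Gpx4 had 418, 337 and 378 counts in I/R + Dex and 399, 637 and 473 in I/R libraries, and its count in that library lay between those of the other I/R + Dex libraries. The copies held 76.3%, 78.8% and 18.2% of the family in I/R + Dex and 78.2%, 67.4% and 74.2% in I/R libraries. The copy's log2 ratio was -0.49 ± 1.07 (SE, adjusted p = 1.00 in edgeR), and without that library it was 0.087.

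Ubald2, which passed the gene test, has a copy among the pseudogenes. Gm7367 on chromosome 7 (59805357 to 59805848, plus strand) had 338, 237 and 268 counts in I/R + Dex, against 449, 389 and 328 in I/R libraries, with slight overlap. Ubald2 had 160, 242 and 260 counts in I/R + Dex, against 15, 9 and 7 in I/R libraries, a log2 ratio of 4.57 ± 0.37 (SE, adjusted p = 0.0299 in edgeR). The size of this ratio held under 16 alternatives, at 4.12 to 4.96, but the call held in only 10: the adjusted p was 0.411 with the replicate number as a block, 0.556 in limma voom, and 0.0529, 0.0575, 0.101 and 0.0597 without I/R + Dex replicate 2, I/R + Dex replicate 3, I/R replicate 2 and I/R replicate 3. The counts of both genes summed to 498, 479 and 528 in I/R + Dex and 464, 398 and 335 in I/R libraries. The copy thus held 67.9%, 49.5% and 50.8% of the pair in I/R + Dex and 96.8%, 97.7% and 97.9% in I/R libraries, without overlap. This share follows from the counts of Ubald2, for whose call the pair was chosen, and is no separate result. Gm7367 had a log2 ratio of -0.32 ± 0.15 (SE, adjusted p = 1.00 in edgeR).

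**Figure D5:**
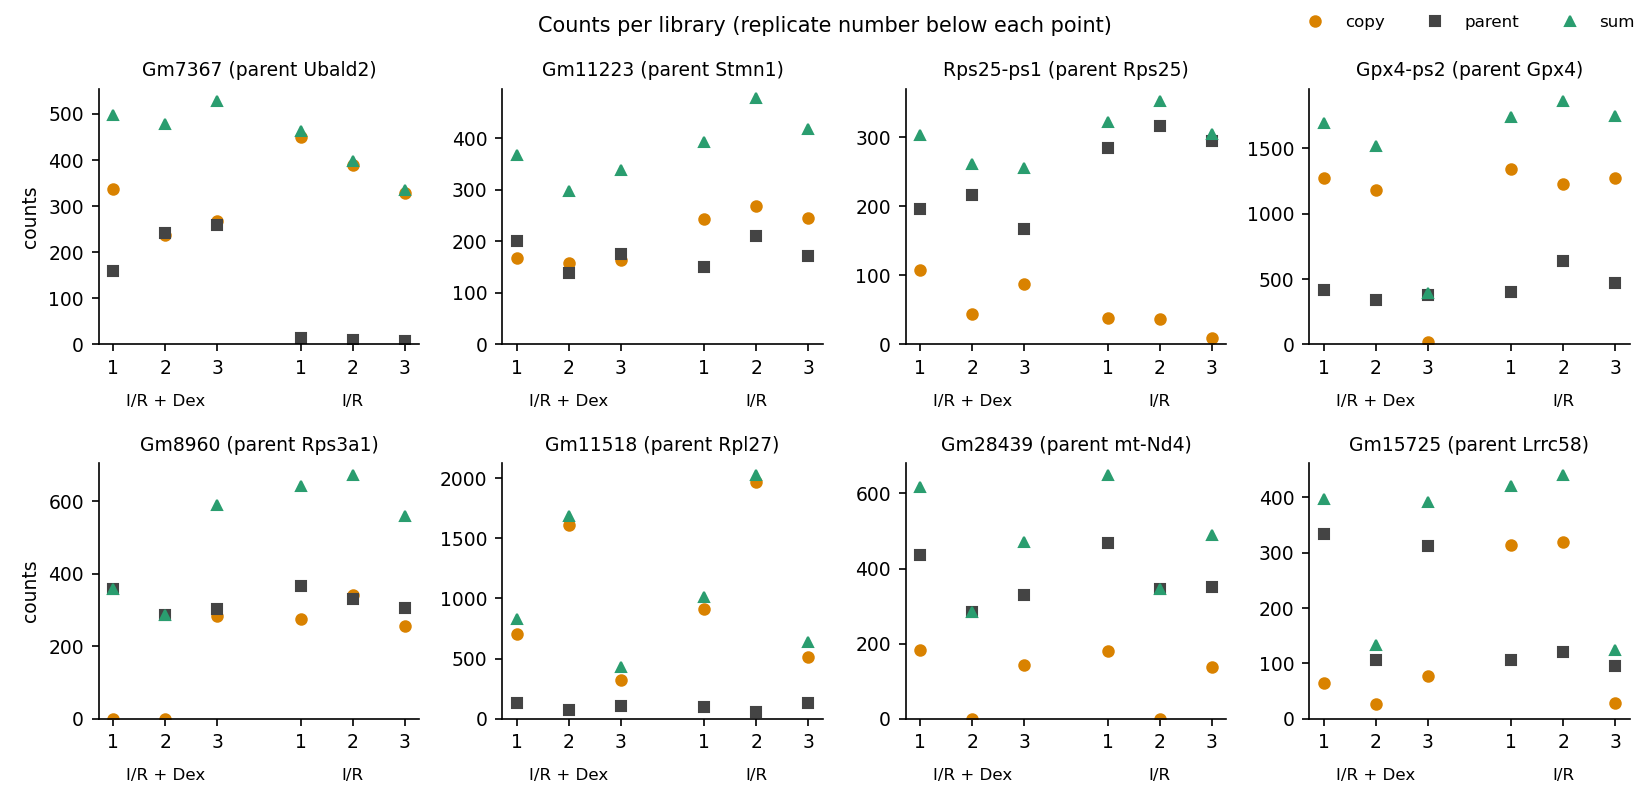
Counts per library of 8 copies (circles), their parents (squares) and the sum of both (triangles), with I/R + Dex replicates left and I/R replicates right; axes start at 0. Gpx4-ps2 had 15 counts in I/R + Dex replicate 3, Gm8960 had 0 in 2 I/R + Dex libraries, and Gm28439 had 0 in replicate 2 of both groups.

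Further members differed in level between libraries of 1 group. Of 525 members with a median of at least 20 CPM, 21 differed over 3-fold between their highest and lowest library (with 1 CPM added), and this limit was set after the values were seen. The groups overlapped in all of these except Rpl3-ps2. Gm8960, a copy of the ribosomal protein gene Rps3a1, had 0, 0 and 285 counts in I/R + Dex and 276, 341 and 256 in I/R libraries, while its parent had 357, 286 and 304 in I/R + Dex and 366, 331 and 305 in I/R libraries. A pair of libraries thus had no count on this copy, while the parent was steady in all 6. Gm11518 and Rpl27-ps3 have the same sequence and match Rpl27, a large-subunit ribosomal protein gene. Gm11518 had 701, 1612 and 324 counts in I/R + Dex and 914, 1970 and 511 in I/R libraries, and Rpl27-ps3 had 194, 394 and 68 in I/R + Dex and 249, 489 and 136 in I/R libraries. Both were highest in replicate 2 and lowest in replicate 3 of either group, at unequal levels. Gm15725, identical to a stretch of Lrrc58, had 65, 26 and 78 counts in I/R + Dex and 314, 320 and 29 in I/R libraries. With the parent added, 5 of the 21 still differed over 3-fold, Gpx4-ps2, Gm11518 and Gm15725 among them.

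Spread between libraries was otherwise small. Among genes with a mean of 100 to 300 counts, the median coefficient of variation over the 6 libraries was 10.7% for 184 pseudogenes, beside 15.6% for 1522 protein-coding genes and 7.66% from counting alone, and it was lower for pseudogenes than for protein-coding genes in each of the 5 ranges of level examined. In the 100 families by name, the coefficient of variation was taken as the pooled SD within groups over the mean. Its median was 12.8% for the copies, 15.7% for the parent and 8.12% for their sum. The sum varied less than copies and parent both in 61 of the 100 families. A sum holds more counts than either part, so its counting error is smaller. No test of these differences in spread was made.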

How the data were processed

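Poly(A)-selected RNA of MLE-12 cells was sequenced as paired reads in 6 libraries, 3 per group, and groups came from the labels. Gene and transcript counts in the deposited tables are raw whole numbers. FPKM per gene were made by the authors. The authors' table gives a log2 fold change, p-value and adjusted p-value per transcript, per the file headers. Per the submitters' processing notes, the tools were DESeq2 1.30, StringTie 2.2.4 and HISAT2 2.1.0, on the build GRCm39. How counts were made, with which annotation release, and how multiple matches were treated is not stated in those notes or the labels. Coordinates are those of the authors' table.

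Gene, transcript and family counts entered edgeR 4.0.16 under R 4.3.3 (robust quasi-likelihood test, filterByExpr, TMM, Benjamini-Hochberg adjustment, threshold 0.05), after tests on simulated data. Shares were compared by exact two-sided permutation of 3 against 3 libraries, smallest p = 0.1. Parents were found with blastn 2.17.0 among GENCODE vM21 transcripts, of which 1342 members had one. SD and n are over libraries, and floors cover counting error only, since molecules were not tagged. DESeq2 1.42.0, limma 3.58.1, other scalings and filters, and left-out libraries were alternatives. Named members were those with the 8 lowest p values in each direction, the 12 most counted, the copies of the 10 most counted families and of Gpx4, members nearly lost in 1 library, Gm7367 and the most counted of each class; others were chosen after their values were seen. One member that the rule names is not reported here. Members, lists and tests were chosen with earlier results of these data known.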

Additional observations from a re-analysis of the deposited data

Results flagged for a closer look

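Genes outside the authors' table also had counts: 1151 further genes with a count are called pseudogenes by the reference annotation alone. They were not used in the comparisons above. Their counts made up 0.0199% of the library with the least and 0.0276% of the library with the most, and 0.0263% ± 0.00111 in I/R + Dex and 0.0224% ± 0.00219 in I/R (SD, n = 3 each, exact permutation p = 0.1, the smallest that 3 against 3 libraries can give). All I/R + Dex libraries were above all I/R libraries. With these genes added, the pseudogene share differed by 0.0242 percentage points between the groups (exact permutation p = 1). The part of depth and annotation in this signal was not tested.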

How the results depend on the processing

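The difference in pseudogene share was 0.0203 percentage points and ran from -0.111 to 0.0881 with a library left out. The groups did not overlap without I/R + Dex replicate 2, which gave the negative value. The rarefied number of members with a count differed by -6.00 between groups, and with at least 5 counts required by 1.83. Members past the threshold numbered 0 in edgeR, beside 0.0675% of all tested genes, and 0 to 1 with a library left out. The 1 was Gm8960 without I/R + Dex replicate 3 (edgeR adjusted p = 0.0068), beside 0.0383% of all genes in that fit. Both remaining I/R + Dex libraries were at 0 for Gm8960, so its fitted change is no bound. Limma trend called 1 member on log2(FPKM + 1) with a mean of at least 1, beside 0.0996% of all genes. On log2(FPKM + 0.1) it called 1, beside 0.0373% of all genes, and without a filter 1, beside 0.0355%. The member was Gm15378 each time, with 6, 5 and 5 counts in I/R + Dex and 1 in each I/R library (limma trend adjusted p 0.0128 to 0.0284). The log2 fold change of Gpx4-ps2 ran from -0.93 to 0.087 with a library left out, the positive value without I/R + Dex replicate 3, and was -2.01 in limma trend on log2(FPKM + 0.1). Non-overlapping families by name numbered 9, and 14 to 24 with a library left out, where 2 libraries stand against 3. The cause of these moves was not tested, except that fewer libraries overlap less often by construction.

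Over genes above a set level, same-numbered libraries did not deviate together (r = 0.0061, -0.00073 and -0.071). Libraries of unlike number gave r from -0.073 to 0.072. A few members, picked after their values were seen, did follow the number. Gm28439 had 0 counts in both libraries numbered 2, and Gm11518 and Rpl27-ps3 were highest in replicate 2 and lowest in replicate 3 of either group. Whether libraries of the same number were handled together was not tested. With the replicate block, 0 members passed. Of the 100 families by name with enough counts, 21 differed in the same direction in 3 of 3 numbers. Where nothing differs, 3 equal signs come up with a probability of 0.25, so this count is not read as a difference. The smallest sign-flip p is 0.25, and the block ended the call of Ubald2 (adjusted p = 0.411). Over all genes the block left 0 calls, against 5 without it, in the gene fit and in the family fit alike.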
